A study of Mus musculus with 6 samples.

Results

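Transcripts of 10 S100 genes, S100a1, S100a4, S100a6, S100a8, S100a9, S100a10, S100a11, S100a13, S100a16 and S100g, were followed by cell class in single-cell RNA sequencing of mouse lung. They were taken by symbol from the 17 S100 family genes listed among 32285 genes. They were chosen by name, with the CPM levels and changes of these same libraries already known, so their patterns over classes are a description and no threshold on a value was set. The 6 libraries were whole lung of wild-type C57BL/6N pups, each from live-sorted cells pooled over 3 mice, with 1 library for each combination of age, sex and oxygen. Female and male pups in room air (21% oxygen) were taken at postnatal day 1 and day 21. Female and male pups given hyperoxia (95% oxygen from day 1 to day 5) and then room air were taken at day 21. Pups of different litters were assigned to the oxygen groups at random, and no group had a second library. No spread between like pools could be measured. Every p-value below rests instead on how far these pools depart from the fitted effects, such as a hyperoxia change that differs between the sexes.

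S100 proteins are small calcium-binding proteins, most of which act as dimers that change shape on binding calcium and then grip a partner protein. Inside the cell several of them join annexins at membranes, and outside the cell some act as alarm signals read by receptors such as RAGE (Ager) and TLR4. S100a8 and S100a9 together form calprotectin, a very abundant cytosolic protein complex of neutrophils, which withholds zinc and manganese from microbes. In the lung, RAGE is known as a protein of alveolar type 1 cells, the thin cells of gas exchange.

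On mouse chromosome 3, 9 of the genes share a stretch from base 90511034 to base 93564643 of GRCm38 (GENCODE M21), and S100g lies apart on chromosome X. S100a8 (90668978 to 90670035, plus strand) and S100a9 (90692632 to 90695721, minus strand) sit near each other and are read in opposite directions. S100a1 (90511034 to 90514392, minus strand) and S100a13 (90514435 to 90524581, plus strand) start 42 bases apart. S100a16 (90537254 to 90543151), S100a4 (90603771 to 90606045), S100a6 (90612882 to 90624181), S100a11 (93520488 to 93526287) and S100a10 (93555080 to 93564643) all lie on the plus strand, and S100a4 overlaps the gene model Gm42674 of the same strand. S100g occupies bases 162961992 to 162964599 of the minus strand, inside a gene model of Ctps2 on the other strand. The genes have 364 (S100a8) to 9933 (S100a6) bases of intron, and a median gene of the files has 9223. S100a6 and S100a13 (9432) lie above that median.

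The 250 bases before the RefSeq start (GRCm38.p6) are printed for the 3 genes that were most bound to a single cell class, S100a8 and S100a9 in neutrophils and S100g in alveolar type 2 cells. Capitals mark the letters TTNCNNAA, a loose form of the site bound by C/EBP proteins, and AGGAAG, a core bound by ETS proteins such as PU.1, both searched on both strands, and TATAAA on the gene's strand.
S100a8, chr3:90668821-90669070, plus strand: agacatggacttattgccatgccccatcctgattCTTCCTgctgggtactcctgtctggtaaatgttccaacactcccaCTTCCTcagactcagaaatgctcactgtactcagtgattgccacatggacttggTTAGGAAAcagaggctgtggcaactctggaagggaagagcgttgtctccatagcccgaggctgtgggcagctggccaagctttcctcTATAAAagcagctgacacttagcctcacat
S100a9, chr3:90695722-90695971, minus strand: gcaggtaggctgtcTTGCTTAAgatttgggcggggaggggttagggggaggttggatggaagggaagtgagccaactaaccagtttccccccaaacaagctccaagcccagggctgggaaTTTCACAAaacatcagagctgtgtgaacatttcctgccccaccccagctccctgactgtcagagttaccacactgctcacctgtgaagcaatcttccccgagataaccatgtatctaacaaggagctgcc
S100g, chrX:162964600-162964849, minus strand: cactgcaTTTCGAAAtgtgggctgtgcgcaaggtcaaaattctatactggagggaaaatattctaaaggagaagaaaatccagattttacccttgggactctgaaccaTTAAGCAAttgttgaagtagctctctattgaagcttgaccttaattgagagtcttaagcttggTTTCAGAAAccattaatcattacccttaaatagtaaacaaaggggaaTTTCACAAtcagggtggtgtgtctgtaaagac
The S100a8 window held 1 TTNCNNAA at 109 bases before the start, 2 AGGAAG (the nearer at 165 bases) and a TATAAA at 24 bases. The S100a9 window held 2 TTNCNNAA, the nearer at 122 bases, and neither of the other motifs. The S100g window held 5 TTNCNNAA, the nearest at 24 bases, with an overlapping pair in the letters TTTCAGAAA. Of 32841 RefSeq promoter windows of this length, 36.9% held a TTNCNNAA, 29.5% an AGGAAG and 7.59% a TATAAA, so each of these motifs is common and a match is a description of the sequence.

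Each library held between 122173482 and 163649658 unique molecular identifiers (UMIs, each tagging 1 captured transcript) and 7074 to 11543 cells with a class assigned by the study's authors, and the median cell held 8329 to 9703 UMIs. Barcodes shared between libraries numbered 26 to 62 per pair, at most 0.414% of a library. A doublet caller marked 11.1% and 6.49% of cells at day 1, and at day 21 it marked 3.74% and 4.53% with hyperoxia against 2.03% and 1.41% without. The neutrophil share of cells was 12.8% (female) and 14% (male) at day 1. At day 21 it was 21.8% and 13.8% without hyperoxia and 10.4% and 12.3% with it. The female hyperoxia library stood apart in its sex check: Xist was found in 56.2% of its cells against 84.4% and 77.2% in the other female libraries and at most 0.195% in male ones, while Y-linked transcripts were found in at most 0.144% of cells of any female library. Results on hyperoxia were therefore also computed without the cells of that library that lacked Xist. Alveolar type 1 and type 2 cells were common at day 1 (17.8% and 15.6%, and 3.99% and 14.6%) and rare at day 21 (at most 0.625% and 1.56%).

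Levels below are the class's counts scaled to a common total of UMIs (CPM), and 3' counting tags each transcript at 1 end, so CPM was compared between genes without a correction for length. Classes with at least 50 cells in a library are described. The Neutrophils class held neutrophil markers: the 15 neutrophil genes summed to 21880 to 28030 CPM there, with 12 or 13 of them at 10 CPM or more. In the order female then male, S100a8 stood in the Neutrophils class at 55510 and 55730 CPM at day 1. At day 21 it stood at 47210 and 44240 CPM without hyperoxia and 41510 and 55780 CPM with it. S100a9 stood there at 79500 and 83040 CPM, 69760 and 66010 CPM, and 64950 and 82700 CPM. Both genes were higher still in the day-1 class of neutrophils marked by Ngp, a gene of granule-forming precursors, where S100a8 reached 87300 and 89880 CPM and S100a9 113800 and 123700 CPM. Together the pair made up 20.1% and 21.4% of all UMIs in that class and 10.6% to 13.9% in Neutrophils.

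Among cells with a class, neutrophils held most copies of both genes. The neutrophil classes held 80.5% and 81.4% of S100a8 UMIs at day 1 and 90.0% and 94.0% of S100a9 UMIs, and 96.7% to 97.9% of either at day 21. Cells without a class, which these shares leave out, held a further 265685 and 196916 S100a8 UMIs at day 1 and 60472 to 117265 at day 21. The share of the pair ranged widely from cell to cell: in Neutrophils it took a median of 12.9% and 13.2% of a cell's UMIs at day 1, with 5% of the female library's cells below 2.69% and 5% above 22.3%. The genes whose levels over 112 combinations of class and library ran most like those of S100a9 were Retnlg (r = 0.96), Mmp9 (0.949) and S100a8 (0.946), and for S100a8 they were S100a9, Stfa2l1 (0.906) and Cstdc4 (0.898). These are Pearson correlations of log2(CPM + 1) over points that share libraries, given without a p.

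**Figure D1:**
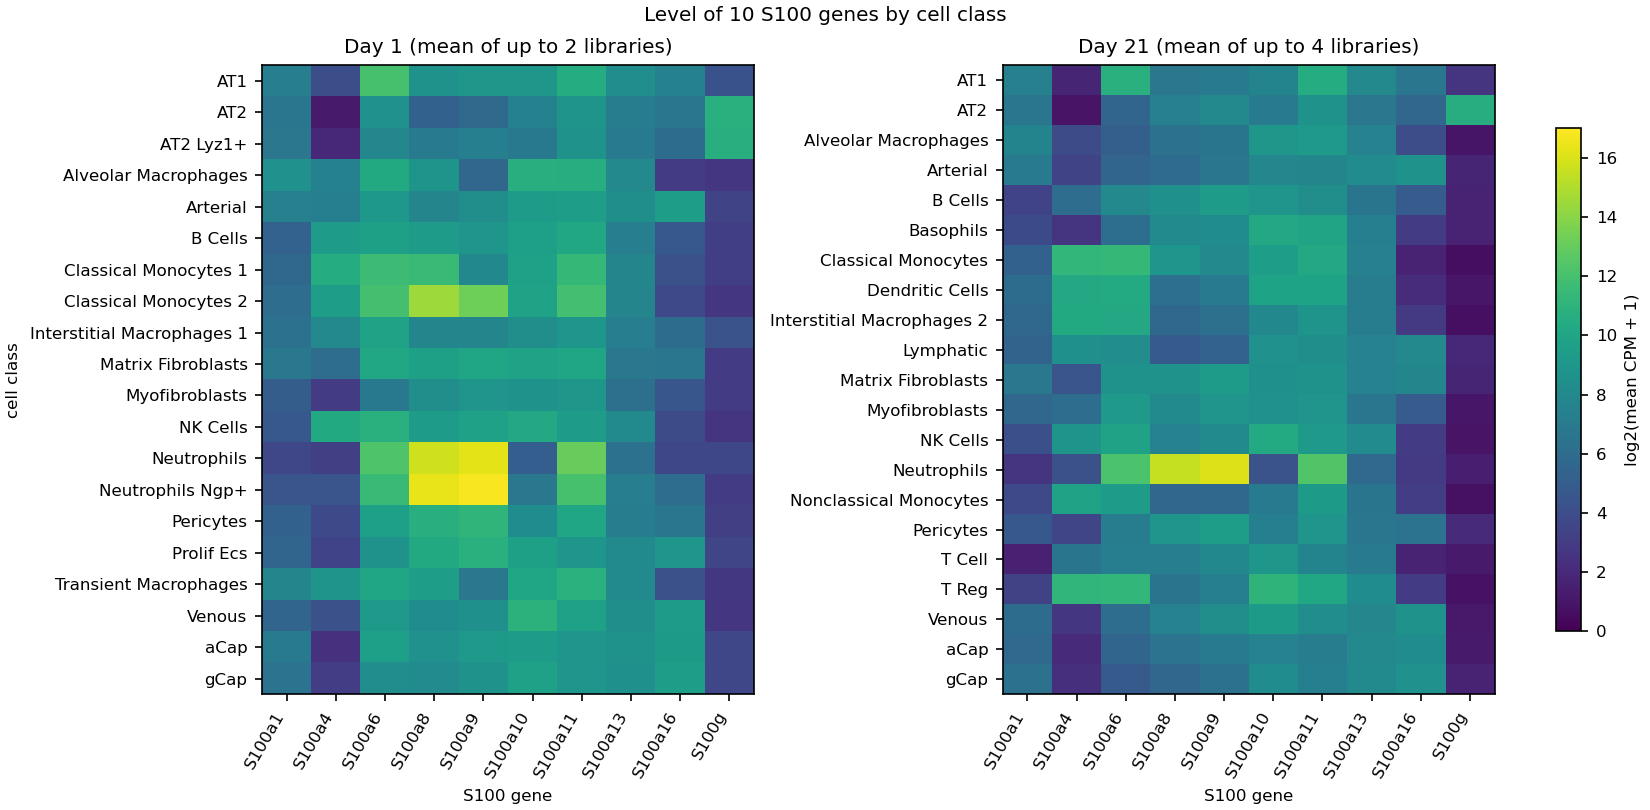
Mean level of each S100 gene (columns) by cell class (rows) at day 1 and day 21, as log2 of CPM plus 1, over libraries with at least 50 cells of the class. S100a8 and S100a9 are brightest in neutrophils, S100g in alveolar type 2 cells (AT2), S100a16 in endothelial classes, and S100a10 is darkest in the Neutrophils class.

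Outside neutrophils the balance of the 2 calprotectin genes differed by class. In Neutrophils there were 0.639 to 0.698 S100a8 UMIs per S100a9 UMI over the 6 libraries, and 0.767 and 0.726 in the Ngp class. At day 1, Classical Monocytes 1 held 10.8 and 13.8, Transient Macrophages 6.23 and 7.47, and Classical Monocytes 2 2.14 and 2.74. Day-1 alveolar macrophages held 9.30 (exact 95% counting interval 7.63 to 11.4) and 9.59 (8.13 to 11.4). Each of these day-1 myeloid classes lay above every neutrophil library, in both sexes. By day 21 the ratio in alveolar macrophages was 0.778 to 1.15 over 4 libraries. Day-21 Classical Monocytes held 2.31 and 3.41 in room air and 0.951 and 1.82 after hyperoxia. In Nonclassical Monocytes, the other monocyte class of day 21, the ratios were 0.916 and 1.02 and then 1.21 and 0.657. The share of classes with separated oxygen groups is not given. Retnlg, a transcript of neutrophils, stood in Classical Monocytes at 10.66 and 2.494 CPM and then 26.99 and 14.48 CPM. Its part in the ratio was not tested.

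**Figure D2:**
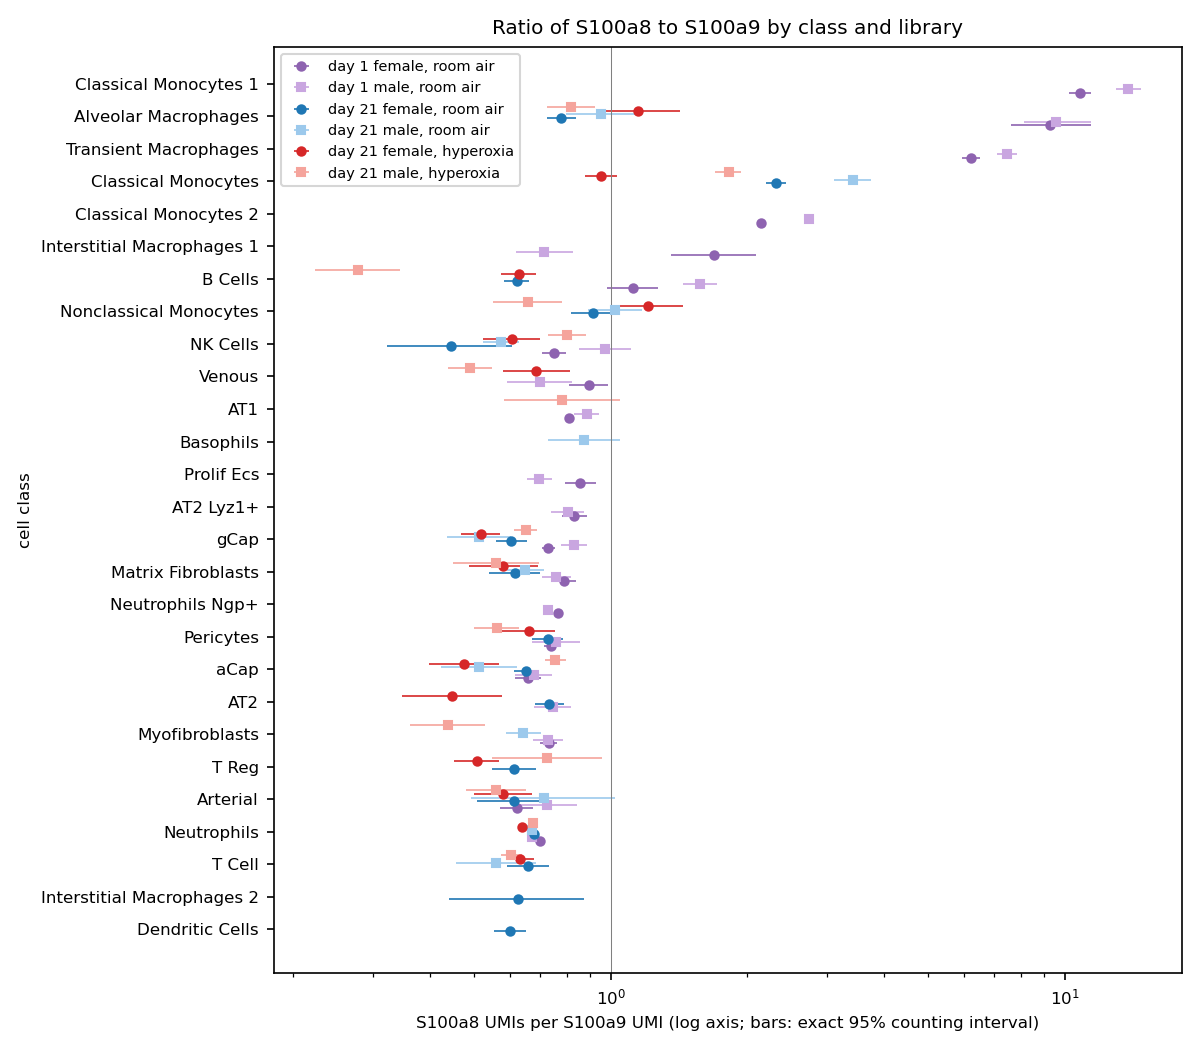
S100a8 UMIs per S100a9 UMI (log axis) in each class and library, with exact 95% counting intervals as bars, which cover counting error only. Day-1 monocytes and macrophages lie between 2.14 and 13.8, except Interstitial Macrophages 1, and neutrophils between 0.639 and 0.767.

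S100a8 was found in most day-1 macrophages. It was detected in 89.9% and 87.6% of alveolar macrophages (median depth 14826 and 18322 UMIs) and in 93.6% of Transient Macrophages of each sex (13104 and 13859 UMIs). General capillary cells (gCap), an endothelial class, held it in 29.0% and 25.1% of cells (5642 and 5203 UMIs). After each cell was thinned to 2000 UMIs, the shares were 45.9% and 40.1% in alveolar macrophages, 57.2% and 57.3% in Transient Macrophages and 13.4% and 10.2% in gCap. S100a9 was no more frequent in macrophages than in gCap: its thinned shares were 10.8% and 6.21%, 12.1% and 10.2%, and 15.7% and 13.3% in the same classes, and day-1 alveolar macrophages had its lowest mean of the day-1 classes, at 47.55 and 48.22 CPM.

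Neutrophil RNA outside neutrophils was measured with Retnlg. Had every Retnlg UMI in a class come with the S100a8 UMIs that accompany it in neutrophils of the same library, it would account for 9.20% and 3.76% of the S100a8 of day-1 alveolar macrophages, 10.9% and 6.02% in Transient Macrophages and 1.18% and 1.05% in Classical Monocytes 1. In Classical Monocytes 2 it would account for 18.3% and 6.81%, and the 15 neutrophil genes summed there to 3138 and 2899 CPM. In gCap the same amount was 48.9% to 117% of S100a8 over the 6 libraries. In classes other than myeloid ones, most S100a8 lay in a few cells. At day 1 gCap stood at 424.0 and 175.0 CPM with all cells, and at 57.36 and 56.79 CPM once cells with 20 or more S100a8 UMIs were left out, as the plot of S100a8 with and without its richest cells shows.

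**Figure D3:**
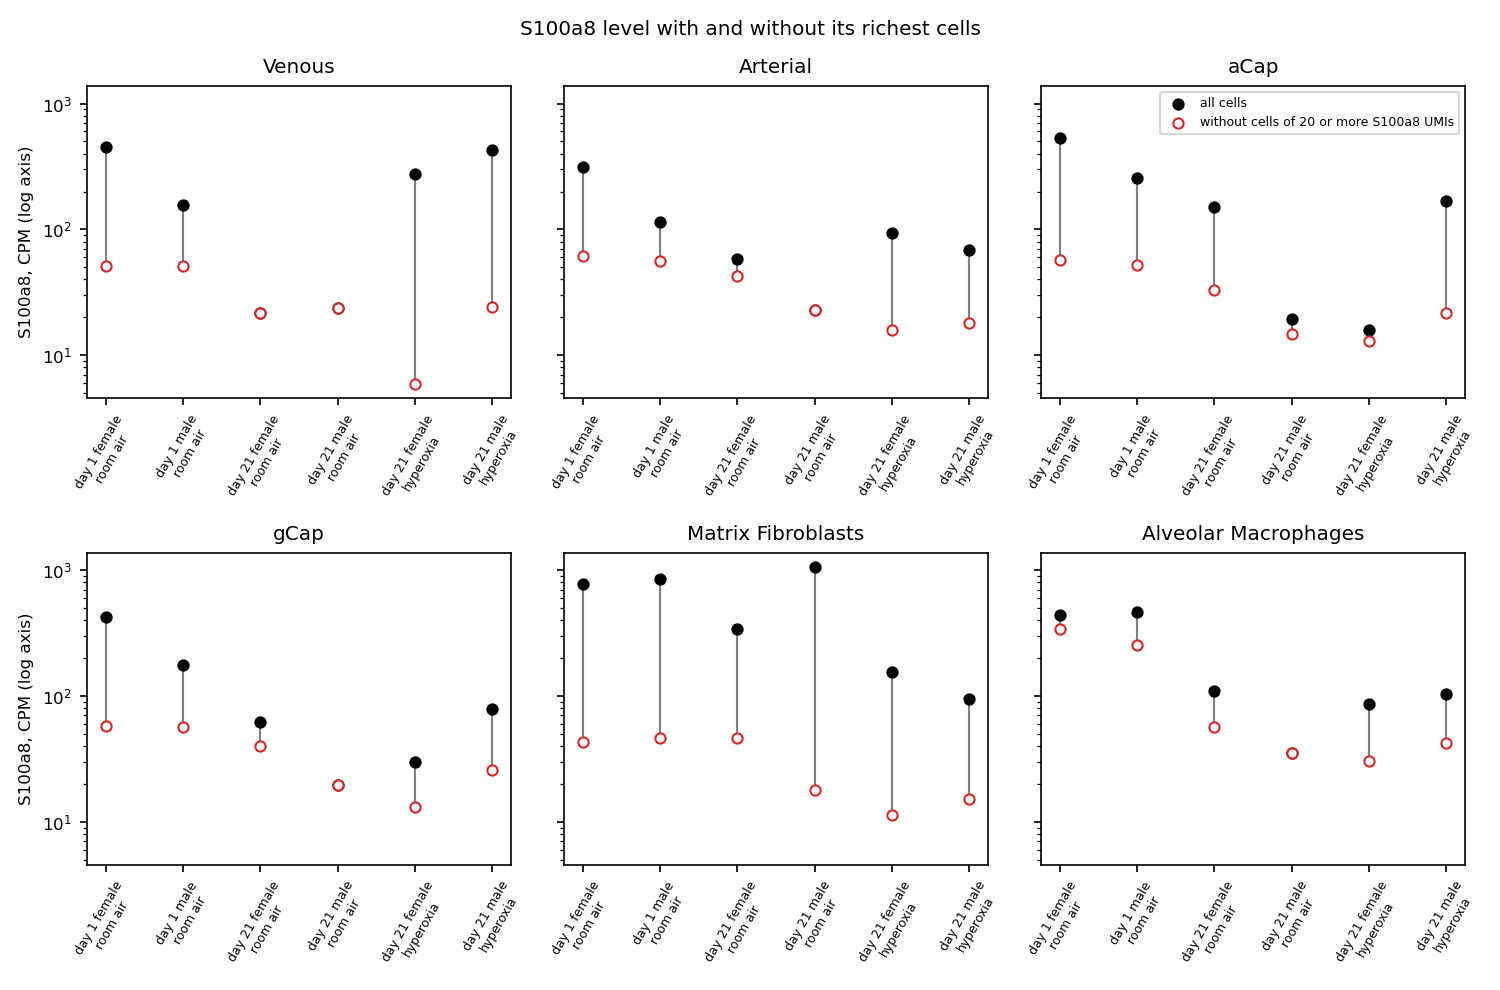
S100a8 in 6 classes and every library, in CPM (log axis), with all cells (filled) and without cells of 20 or more S100a8 UMIs (open). In Venous cells after hyperoxia the level drops from 274.6 to 5.918 CPM (female) and from 428.4 to 24.38 CPM (male), while day-1 alveolar macrophages keep most of theirs.

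S100a6, which binds calcyclin-binding protein and annexins, and S100a11, which binds annexin A1, were the other genes high in neutrophils. S100a6 stood there at 5061 and 5301 CPM at day 1, and the room-air and hyperoxia pools of day 21 held 4256 and 4380 CPM and 4720 and 5625 CPM. Alveolar type 1 cells came next at day 1, at 4844 and 3694 CPM of S100a6. S100a11 stood at 8421 and 8319 CPM in day-1 Neutrophils and 5147 to 5745 CPM at day 21. Age and software version cannot be told apart in these levels, as set out below. The endothelium was low in both genes at day 21: S100a6 had its lowest mean in gCap, at 20.11 to 33.18 CPM, and S100a11 in alveolar capillary cells (aCap), at 133.9 to 168.0 CPM. The genes most like S100a11 over the 112 points were Anxa1 (r = 0.845), Pkm (0.808) and S100a6 (0.803).

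S100a4, which binds non-muscle myosin and marks motile cells, was highest in monocytes and in the authors' T Reg class. No regulatory T cell genes were read to check that name. Day-21 Classical Monocytes held 2290 and 2549 CPM in room air and 2566 and 2589 CPM after hyperoxia. T Reg held 2537 and 2125 CPM, then 2145 and 2742 CPM, so these 2 classes were not separated beyond their spread. In Neutrophils S100a4 stood at only 3.3 to 29.45 CPM. Type 2 cells of day 21 held a mean of 0.844 CPM over 3 libraries of unlike sex and oxygen. That mean rests on very few counts, since 3 UMIs would give 0.9985 to 2.659 CPM in these libraries.

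S100a10, which joins annexin A2 in a membrane complex that binds plasminogen activators, was lowest in the Neutrophils class, at 15.31 to 40.11 CPM over the 6 libraries. The Ngp class, in which calprotectin was highest, held 119.4 and 106.5 CPM of S100a10. Its highest classes were Venous cells at day 1 (1734 and 2161 CPM) and T Reg at day 21 (1966 to 2287 CPM). The likeness of its levels to those of Anxa2 was weak (r = 0.0733), and the most similar genes were Nudt21 (0.849), Eif3i (0.843) and Tomm5 (0.842).

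The endothelium was marked by S100a16. S100a13, which takes part in the release of FGF1 and IL-1α, was not particular to it. S100a16 stood at 756.1 and 749.4 CPM in day-1 Arterial cells and 403.4 to 454.0 CPM at day 21, against 1.247 to 3.285 CPM in day-21 Classical Monocytes. Its levels ran closest to Slc9a3r2 (r = 0.97), Esam (0.966) and Cavin2 (0.966). S100a13 differed less between classes, from 428.2 CPM in day-1 female aCap to 48.81 CPM in a neutrophil library. Among cells with a class, type 1 cells held the largest part of its UMIs at day 1, at 27.1% and 20.6%. In day-21 libraries gCap held the largest part, at 24.4% to 35.2%. The genes most like S100a13 were Plec (r = 0.747), Nras (0.738) and Lxn (0.731). S100a1, known from heart and skeletal muscle, where it acts on calcium release, was highest in alveolar macrophages, at 323.7 and 462.6 CPM at day 1 and 146.2 to 270.3 CPM at day 21, and lowest in T cells at day 21, at 1.429 to 2.381 CPM.

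S100g, the vitamin D-dependent calcium-binding protein of gut and placenta, was a gene of alveolar type 2 cells. The AT2 class held 1694 and 1844 CPM at day 1, 1535 CPM in the day-21 female pool kept in room air, and 1667 and 1462 CPM after hyperoxia. The male room-air library at day 21 had only 7 type 2 cells and is not described. AT2 Lyz1+, a day-1 class, held 1663 and 1652 CPM, below the 1694 and 1844 CPM of AT2 at that age. The counting intervals of the 2 classes overlapped in females (1635 to 1692 and 1623 to 1767 CPM). They did not in males (1635 to 1670 and 1821 to 1867 CPM). No other class passed 33.36 CPM. The genes most like S100g were Sftpc (r = 0.97), Slc34a2 (0.967) and Sftpb (0.966), all known markers of type 2 cells.

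S100 levels were then compared between ages in room air, in 10 classes with at least 50 cells in each of the 4 libraries. In edgeR's quasi-likelihood test, with sex as a covariate, 74 of 96 member and class pairs were called at an adjusted p under 0.05, 71 lower and 3 higher at day 21. Over all genes 54.3% of 109029 gene and class pairs were called, 25.7% lower and 28.6% higher. Among genes with at most 10000 bases of intron, as all 10 members have, 53.9% of 36356 were called, 45.2% lower and 8.76% higher. The median log2 change was -1.19 over the member pairs, -0.51 over the genes with at most 10000 bases of intron and 0.0059 over all genes. Day-1 files came from Cell Ranger 6.0.0 and day-21 files from 7.0.1, per the file headers, and those versions differ in whether intron reads are counted by default, so age and software cannot be told apart. Scaled on genes with at most 5000 bases of intron, the median over classes of each class's median log2 change went from 0.0054 to 0.65. Then 63 of 96 member pairs were called, 49 lower and 14 higher, 53 of them shared with the first fit. Over all genes 58.6% of 109029 pairs were called under this scaling, and 85.7% of those calls were higher.

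S100a6 was the member with the most calls, lower in 9 of 10 classes and higher in 1. In alveolar macrophages it stood at 1089 and 1521 CPM at day 1 and 32.19 and 16.5 CPM at day 21. It fell by 6.11 (SE 0.371) on the log2 scale, with an adjusted p of 3.06e-12 in edgeR. In aCap the levels were 882 and 660.3 CPM against 43.18 and 30.1 CPM, a log2 change of -4.49 (SE 0.175). The Arterial change was -3.91, and in none of these classes did the ages overlap. These classes were named from calls on the same values, so separated ages, here and below, add no support to the calls. The share of separated pairs over all genes is not given. Ager, a type 1 marker, was lower at day 21 in these classes too: carried at the ratio of type 1 cells, it would account for 21.5% and 23.0% of day-1 S100a6 in gCap, 15.8% and 14.2% in aCap and 2.79% and 2.77% in alveolar macrophages. The sum of all 6 type 1 marker genes was smaller at day 21 in alveolar macrophages (244.3 and 280.9 CPM, then 50.28 and 54.97 CPM). It was larger at day 21 in gCap (725.9 and 718.5 CPM, then 1098 and 1045 CPM), aCap (1836 and 1481 CPM, then 2255 and 2656 CPM) and Arterial cells (496.6 and 562.6 CPM, then 755.2 and 786.7 CPM). In these endothelial classes all 6 genes reached 10 CPM at day 1. At day 21, 4 and 3 did in gCap, 3 and 3 in aCap and 2 and 3 in Arterial cells, so the larger sums rested on fewer genes. The part of type 1 RNA in the S100a6 falls was not tested.

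S100a4 fell in some of the same classes. In alveolar macrophages it stood at 179.7 and 177.0 CPM at day 1 and 8.957 and 5.167 CPM at day 21, a log2 change of -4.98 (SE 0.21, adjusted p 7.97e-15). Arterial cells went from 153.1 and 175.8 CPM to 11.65 and 8.089 CPM, a log2 change of -4.11 (SE 0.202). B cells changed by -3.63 (SE 0.287), from 609.4 and 649.2 CPM to 81.05 and 39.52 CPM.

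Myofibroblasts went the other way for both genes. S100a6 stood at 145.6 and 82.95 CPM at day 1 and 540.1 and 515.1 CPM at day 21, and rose by 2.17 on the log2 scale (SE 0.178, adjusted p 4.49e-10). S100a4 stood at 7.426 and 6.381 CPM and then 42.27 and 35.94 CPM, and rose by 2.41 (SE 0.345, adjusted p 3.22e-06). Both rises were called under every one of the 13 (S100a4) and 12 (S100a6) settings with a value, and their ages did not overlap. The only other rise was S100a16 in matrix fibroblasts, by 0.86 (SE 0.169), from 107.3 and 91.63 CPM to 203.2 and 208.2 CPM. The summed level of 8 capillary marker genes in that class was 338.8 and 291.6 CPM at day 1 and 1577 and 1945 CPM at day 21. Without doublets the S100a16 rise was 1.28 (adjusted p 9.24e-07).

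**Figure D4:**
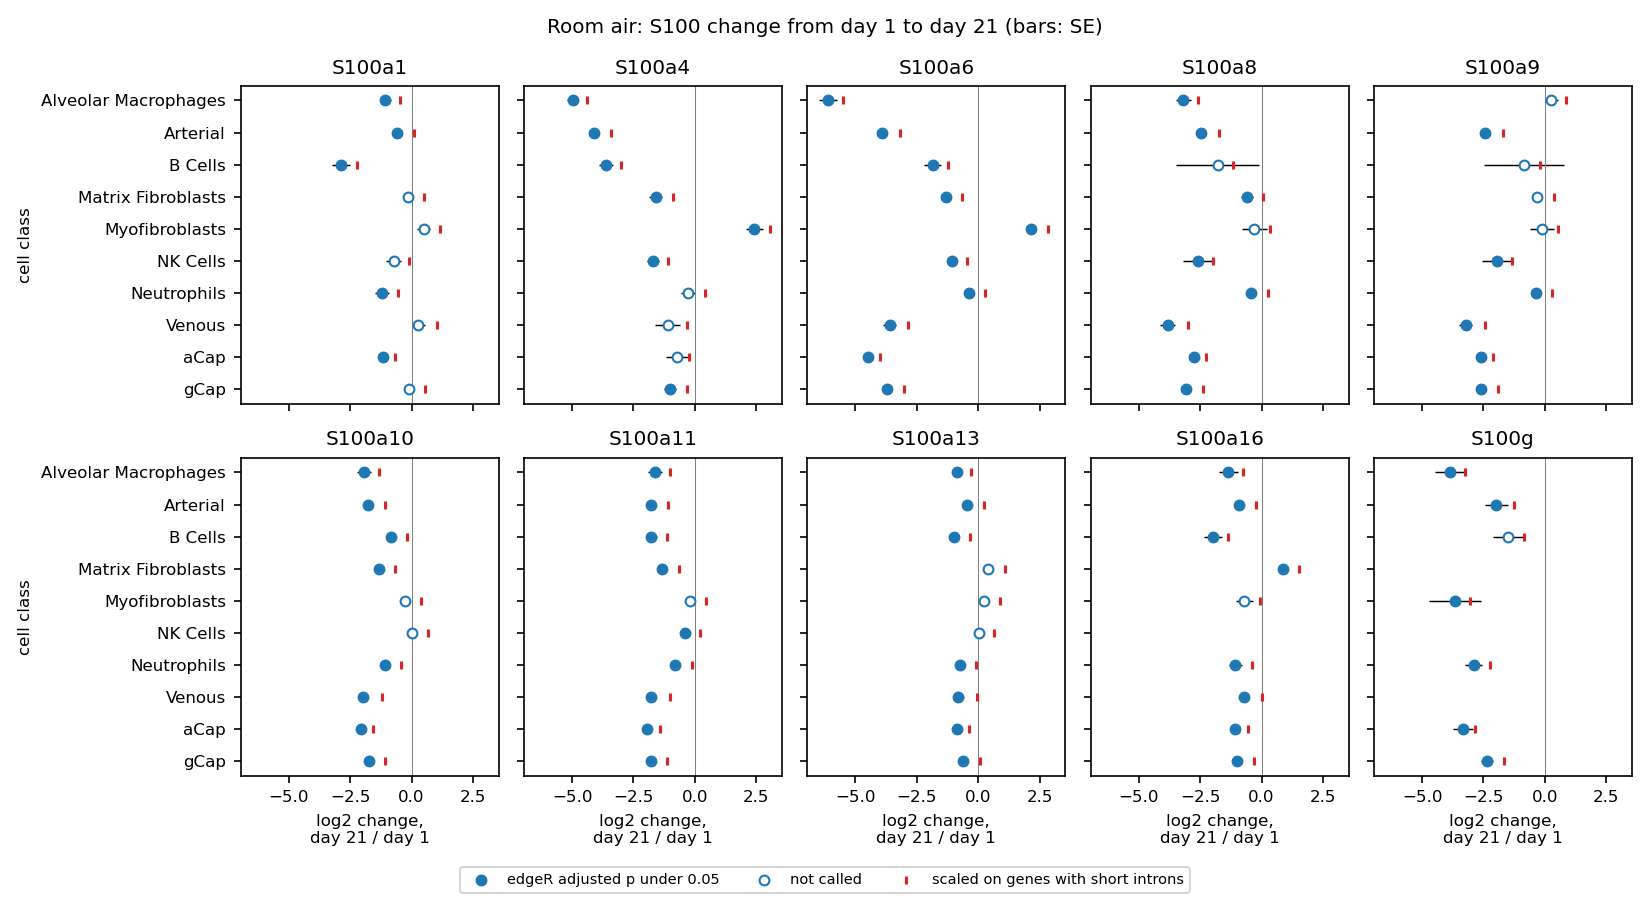
Log2 change from day 1 to day 21 in room air for each member and class tested, with its standard error, filled where edgeR's adjusted p was under 0.05, and red ticks for scaling on genes with short introns. The S100a4 and S100a6 points of Myofibroblasts lie to the right, at 2.41 and 2.17, while their alveolar macrophage points lie farthest left, at -4.98 and -6.11.

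S100a8 fell in 8 and S100a9 in 6 of 10 classes. In alveolar macrophages S100a8 stood at 442.4 and 462.6 CPM at day 1 and 109.6 and 35.3 CPM at day 21, and fell by 3.18 (SE 0.294, adjusted p 3.64e-09). S100a9 stood there at 47.55 and 48.22 CPM and then 140.9 and 37.03 CPM, a change of 0.27 that was not called (adjusted p 0.43). In gCap S100a8 fell by 3.06 and S100a9 by 2.60, and in Venous cells by 3.82 and 3.22. Without cells holding neutrophil granule RNA, these became -1.09 and -0.64 in gCap and -1.12 and -0.52 in Venous, the last no longer called (adjusted p 0.133). In Neutrophils themselves S100a8 fell by 0.41 and S100a9 by 0.38, and both were above 0, at 0.26 and 0.29, when scaled on genes with short introns.

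S100a10 and S100a11 fell in 8 and 9 classes, by similar amounts in the endothelium. S100a10 in aCap stood at 581.8 and 765.2 CPM and then 156.3 and 189.0 CPM, a log2 change of -2.04 (SE 0.155). S100a11 in aCap stood at 506.7 and 483.9 CPM and then 133.9 and 141.8 CPM, a change of -1.93 (SE 0.157). In Venous cells the changes were -1.98 and -1.79, and S100a10 fell by 1.93 in alveolar macrophages and S100a11 by 1.80 in Arterial cells. The ages did not overlap in any of these.

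The remaining members changed less or at lower levels. S100a1 fell in 5 of 10 classes, most in B cells (-2.87, from 51.92 and 27.56 CPM to 7.302 and 4.56 CPM), Neutrophils (-1.21) and aCap (-1.17). S100a13 fell in 7 classes, by at most 0.98 (B cells, from 149.6 and 156.7 to 94.2 and 81.57 CPM), and by 0.88 each in alveolar macrophages and aCap. S100a16 fell in 7 of 9 classes, in B cells by 1.99, in alveolar macrophages by 1.35 and in Neutrophils by 1.06. Without doublets S100a16 in alveolar macrophages stood at 2.272 and 3.278 CPM at day 1 and 2.699 and 3.427 CPM at day 21. Those CPM levels were higher at day 21 in both sexes, whereas the change fitted with TMM scaling was -0.25, which was not called (adjusted p 0.698). S100g was tested only outside type 2 cells, where it stood at no more than 13.2 CPM, and fell in 6 of 7 classes, by 3.86 in alveolar macrophages, 3.66 in Myofibroblasts and 3.35 in aCap. These rest on few counts: Myofibroblasts held 49 and 40 UMIs of S100g at day 1 and 1 and 0 at day 21, so the fitted size depends on the small count that edgeR adds. Type 2 cells were also fewer at day 21, as given above, and the part of their RNA in the S100g changes was not tested.

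The effect of early hyperoxia was read at day 21 in 14 classes, with sex as a covariate. Of 129 member pairs 19 were called, 16 higher and 3 lower. Over all genes 2.28% of 154767 pairs were called, 1.63% higher and 0.654% lower. The median log2 change was 0.0922 over the member pairs and -0.0022 over all genes. DESeq2 called 9 of the member pairs (0.91% over all genes) and edgeR without the sex covariate called 7 (1.03% over all genes). Without called doublets 17 pairs were called, 8 higher and 9 lower, and 8 of these were among the first 19. Over all genes 1.35% of 149423 pairs were called without doublets, and 52.2% of those calls were higher. Without the Xist-negative cells of the female hyperoxia library 21 were called, 17 of them among the first 19, and 2.45% of pairs over all genes.

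S100a16, an endothelial gene in these data, was called higher in 4 classes that hold little of it. In alveolar macrophages it stood at 3.042 and 3.731 CPM in room air and 33.07 and 20.29 CPM after hyperoxia, a log2 change of 2.91 (SE 0.278, adjusted p 1.41e-08). In B cells it stood at 6.572 and 7.093 CPM and then 22.98 and 84.02 CPM, a change of 2.77 (SE 0.445, adjusted p 0.0412). Nonclassical Monocytes went from 3.28 and 3.29 CPM to 9.883 and 14.13 CPM, a change of 1.82, and Myofibroblasts from 15.65 and 12.9 to 35.4 and 53.5 CPM, a change of 1.67. In all 4 classes the oxygen groups did not overlap, which adds no support because the classes were picked by calls on the same values.

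Endothelial transcripts moved with these S100a16 levels. Cldn5, a tight junction gene of endothelium, stood in alveolar macrophages at 9.717 and 15.64 CPM in room air and 261.5 and 138.9 CPM after hyperoxia, and in B cells at 60.61 and 68.4 CPM and then 224.5 and 610.1 CPM. Carried at the ratio of endothelial cells of the same library, Cldn5 would account for 89.2% and 75.6% of the S100a16 of hyperoxia alveolar macrophages. In Nonclassical Monocytes it would account for 51.1% and 57.1%, and the shares in B cells and Myofibroblasts are not given. The summed level of 8 capillary marker genes in alveolar macrophages was 532.4 and 516.7 CPM in room air (3 of 8 genes at 10 CPM or more in each) and 769.0 and 759.9 CPM after hyperoxia (8 and 7 of 8). The sum was also larger after hyperoxia in B cells (634.6 and 463.6 CPM, then 894.1 and 1802 CPM), Nonclassical Monocytes (129.6 and 125.0 CPM, then 290.1 and 303.6 CPM) and Myofibroblasts (383.5 and 531.7 CPM, then 603.0 and 850.8 CPM). With called doublets left out, S100a16 in alveolar macrophages stood at 2.699 and 3.427 CPM in room air and 5.047 and 6.001 CPM after hyperoxia, and the change was 0.82 (adjusted p 0.652). The same removal gave 0.63 (adjusted p 0.53) in Nonclassical Monocytes and 1.11 (adjusted p 0.723) in Myofibroblasts, and B cells, which could not be fitted, stood at 0.887 and 1.137 CPM and then 2.104 and 5.677 CPM.

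S100a4 was called higher in 3 classes. In Neutrophils it stood at 10.56 and 3.963 CPM in room air and 29.45 and 24.76 CPM after hyperoxia, a change of 1.88 (SE 0.266, adjusted p 0.0206), though it was found in 4.58% and 2.25% of cells in room air and 4.25% and 3.48% after hyperoxia. Without doublets the levels were 10.32, 3.837, 10.99 and 8.534 CPM and the change 0.51 (adjusted p 0.457). In alveolar macrophages the levels were 8.957 and 5.167 CPM and then 23.06 and 17.42 CPM, a change of 1.48 that was 0.31 without doublets (adjusted p 0.936). S100a6, called higher there by 0.89, was at -0.04 without doublets. In Myofibroblasts S100a4 rose from 42.27 and 35.94 CPM to 62.54 and 121.0 CPM, by 1.25, and by 1.24 without doublets (adjusted p 0.315). S100a6 in Arterial cells, at 46.3 and 28.95 CPM and then 57.71 and 49.2 CPM, rose by 0.53 (adjusted p 0.0294) and lost its call when any of the 4 libraries was left out. The neutrophil gene sum in Arterial cells was 48.82 and 39.59 CPM and then 81.99 and 81.91 CPM, and without cells of neutrophil granule RNA S100a6 changed by 0.21 (adjusted p 0.794).

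The S100a8 call in Venous cells rested on few cells. In Venous cells S100a8 stood at 21.55 and 23.92 CPM in room air and 274.6 and 428.4 CPM after hyperoxia, a change of 3.92 (SE 0.268), and S100a9 rose by 3.84. In the female hyperoxia library 1 cell of 83 held 97.9% of the S100a8 UMIs, and in the male one 2 of 112 held 94.5%. The sum of 15 neutrophil genes in Venous cells was 115.3 and 117.9 CPM in room air and 209.4 and 322.9 CPM after hyperoxia, and 1, 1, 4 and 8 of the 15 genes reached 10 CPM. Without cells holding neutrophil granule RNA, S100a8 changed by -0.68 and S100a9 by -0.24.

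The calprotectin calls outside Venous cells turned in direction without cells of neutrophil granule RNA or with 1 library left out. In Arterial cells S100a8 and S100a9 rose by 1.03 and 1.22, and stood at -0.57 and -0.26 without cells of neutrophil granule RNA. S100a9 in Classical Monocytes, at 248.9 and 125.3 CPM and then 283.7 and 365.6 CPM, rose by 0.85 and stood at -0.82 without those cells. In Myofibroblasts S100a8 fell by 1.62 and S100a9 by 1.23, from groups that overlapped: S100a8 stood at 62.62 and 762.1 CPM in room air and 34.22 and 201.2 CPM after hyperoxia, and leaving out the male room-air pool gave 0.90 and 1.12. The neutrophil gene sum in Myofibroblasts was 176.9 and 477.3 CPM in room air and 62.54 and 105.7 CPM after hyperoxia. Without cells of granule RNA the changes were -1.03 and -0.27, and neither was called (adjusted p 0.494 and 0.933). In Neutrophils neither gene was called, at 0.04 (SE 0.174) for S100a8 and 0.07 (SE 0.173) for S100a9.

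**Figure D5:**
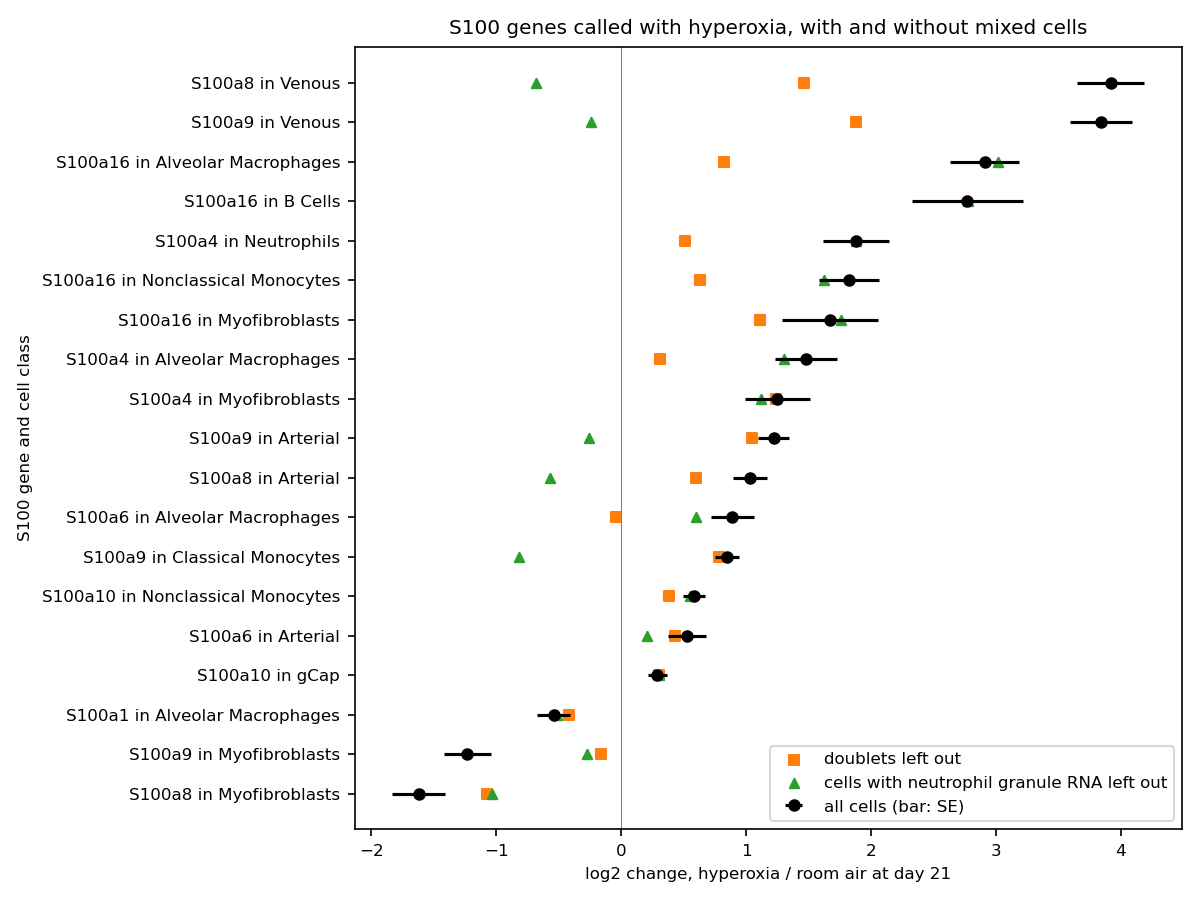
Log2 change with hyperoxia at day 21 for the 19 called member and class pairs, with all cells (black, with SE), without called doublets (orange) and without cells holding neutrophil granule RNA (green). The S100a8 and S100a9 points of Venous and Arterial cells and the S100a9 point of Classical Monocytes move to the left of 0 in green, and the S100a16 points move towards 0 in orange, while S100a10 in gCap stays near 0.29.

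The S100a10 and S100a1 calls kept their direction when doublets were left out. S100a10 in Nonclassical Monocytes stood at 103.0 and 88.52 CPM in room air and 139.5 and 154.2 CPM after hyperoxia, and rose by 0.58 (SE 0.0877, adjusted p 0.00189). Without doublets it rose by 0.38 (adjusted p 0.0345), and without the male hyperoxia library its adjusted p was 0.0568. The capillary marker sum given above was larger after hyperoxia in this class, and its part in the S100a10 call was not tested. In gCap S100a10 stood at 253.8 and 306.5 CPM and then 315.9 and 361.2 CPM, and rose by 0.29 (SE 0.076, adjusted p 0.0326), or by 0.30 without doublets. The gCap call was lost without the female room-air, the female hyperoxia or the male hyperoxia library. S100a1 in alveolar macrophages stood at 270.3 and 206.5 CPM in room air and 146.2 and 189.1 CPM after hyperoxia, and fell by 0.54 (SE 0.131, adjusted p 0.00549), or by 0.42 without doublets. Its call was lost without either female library and in DESeq2 (adjusted p 1.0).

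S100a11, S100a13 and S100g had no call with hyperoxia, 0 in edgeR and 0 in DESeq2 of 14, 14 and 4 classes tested, and an unadjusted p under 0.05 in 2, 0 and 0 of them. Their log2 changes ran from -0.35 to 0.42 for S100a11 and from -0.28 to 0.23 for S100a13 over 14 classes, and from -1.44 to 0.31 for S100g over 4. In T cells the female room-air library stood apart, with S100a4 at 296.6 CPM against 10.52 (male room air), 30.52 and 47.09 CPM (female and male hyperoxia), and S100a6 at 410.6 CPM against 18.28 to 94.58 CPM. NK cells of that library held 819.5 CPM of S100a4 against 255.7 to 387.4 CPM in the others.

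Female and male libraries were compared over all 6 libraries in 10 classes, with the combination of age and oxygen as a covariate. Of 94 member pairs 2 were called, both higher in females, where 0.0948% of 106495 pairs over all genes were called (0.0413% higher and 0.0535% lower). These were S100a8 in Arterial cells, at 311.4, 58.58 and 93.66 CPM in females (day 1, day 21 room air, day 21 hyperoxia) and 114.9, 22.99 and 68.98 CPM in males, a log2 difference of 1.02 (SE 0.15, adjusted p 0.00653), and S100a9 there, at 1.13 (SE 0.174, adjusted p 0.0105). Without cells holding neutrophil granule RNA they were 0.38 and 0.18 and neither was called.

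An interaction of sex with hyperoxia was tested in 10 classes, with all 6 libraries in the fit. It set the female minus male log2 difference after hyperoxia against the same difference shared by the room-air libraries of day 1 and day 21. Of 96 member pairs 13 were called, 2 with a positive and 11 with a negative value, where 0.428% of 112850 pairs over all genes were called (0.161% positive and 0.267% negative). They were S100a8 and S100a9 in 10 cases, S100a4 and S100a16 in Neutrophils and S100a6 in gCap. DESeq2 called 2 of them. The values are given with the results for a closer look.

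The other members of the family and the partner proteins of S100 were read from lists of 8 and 27 genes. Among the other S100 genes, 8 of 10 pairs were called with age, of which S100a14, an epithelial gene, was lower in 6 classes by 4.86 to 7.75. Its highest level was in type 1 cells (AT1, 442.7 CPM in the day-1 female library), which were rare at day 21, and their part in these falls was not tested. In the same list S100a7a was lower in Neutrophils by 3.09. S100b, known from glia and nerve, rose in gCap by 3.45 (SE 0.653). None of 6 pairs was called with hyperoxia in edgeR, 0 had an unadjusted p under 0.05, and DESeq2 called 0. Of the partner pairs 146 of 215 were called with age, 46 higher and 100 lower, which is 67.9% against 54.3% over all genes, with Ager and Bsg (basigin, a receptor of S100a9) lower in all 10 classes and Tlr4 higher in 8 of 9. The part of the rarer type 1 cells in the Ager falls was not tested. Anxa2, the partner of S100a10, was lower in 8 classes and higher in 1. With hyperoxia 8 of 301 partner pairs were called (2.66%, against 2.28% over all genes), all higher, 4 of them in alveolar macrophages (Plat 2.62, Ager 2.48, Fgf1 2.21 and Anxa6 0.48), a class in which 10.9% of all genes tested were called. The sum of 6 type 1 marker genes in alveolar macrophages was 50.28 and 54.97 CPM in room air and 155.8 and 145.5 CPM after hyperoxia, and its part in these calls was not tested.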

How the data were processed

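Lung cells were profiled with 10x Genomics 3' v3.1 chemistry. The deposited matrices hold raw UMI counts per gene and cell, made with Cell Ranger 6.0.0 (day 1) and 7.0.1 (day 21), per the file headers; the submitters' processing notes name Cell Ranger 6.0.0, Seurat 4.1.1 and mm10. Cell classes are the authors' deposited names, used as given, and cells without a class were left out. Doublets were called with scrublet in scanpy 1.11.5 and kept, except where stated.

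Counts were summed per library and class (50 or more cells in every library compared) and tested with edgeR 4.0.16's quasi-likelihood test in R 4.3.3 (filterByExpr, TMM scaling, Benjamini-Hochberg adjustment over all genes of a class, called at 0.05). Residual degrees of freedom were 1 for age, hyperoxia and the interaction, and 2 for sex, so the tests lean on the spread shared over genes. Exact 95% intervals on counts and shares cover counting error only. Likeness was Pearson's r over log2(CPM + 1). DESeq2 1.42.0 was the alternative. The tests were tried on simulated counts.

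All 10 members are named, with every called pair where a comparison had 30 or fewer and otherwise the 3 largest rises and falls of each member. The members and the gene lists were chosen with earlier results of these data known. The alternatives on granule RNA, short-intron scaling and Xist were added after the data were seen. Of the promoter entries, 9 members matched; S100a10 is not shown.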

Additional observations from a re-analysis of the deposited data

Results flagged for a closer look

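In 13 member and class pairs the difference between the sexes was not the same after hyperoxia as in room air, by edgeR's interaction test. Each value is the female minus male log2 difference after hyperoxia, less the same difference fitted over the room-air libraries of day 1 and day 21, so the day-1 libraries enter it. The calprotectin genes made up most of them. In aCap S100a8 stood at 150.3 CPM in the female room-air library and 15.89 CPM after hyperoxia, and in males at 19.31 and 167.6 CPM, so the sexes moved in opposite directions, with an interaction of -5.29 (adjusted p 1.01e-65), and -4.52 for S100a9 (adjusted p 1.02e-53). Without called doublets the aCap values were -1.40 and -0.75, the second no longer called (adjusted p 1.0), and DESeq2 called neither gene (adjusted p 0.273 and 0.266). The sum of 15 neutrophil genes in aCap was 83.61 CPM and then 22.29 CPM in females and 13.98 CPM and then 76.96 CPM in males. With cells of neutrophil granule RNA left out, the aCap values were -2.09 (adjusted p 7.52e-08) and -1.38 (adjusted p 0.00155), both smaller in size and still called. In gCap S100a8 went from 62.09 to 29.75 CPM in females and from 19.76 to 78.32 CPM in males, an interaction of -2.79 (adjusted p 2.48e-16), and S100a9 gave -2.47 (adjusted p 5.45e-15). The gCap values were -1.51 and -0.98 without cells holding neutrophil granule RNA, the second no longer called (adjusted p 0.235). Without called doublets they were -1.9 and -1.25, smaller in size and still called, and DESeq2 also called both genes in gCap.

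Both genes were also called in Venous cells, at -1.79 for S100a8 (adjusted p 0.0114) and -1.96 for S100a9 (adjusted p 0.000518). At day 21 S100a8 there was higher after hyperoxia in both sexes, from 21.55 to 274.6 CPM in females and from 23.92 to 428.4 CPM in males, with 1 and 2 cells holding most of the copies. The day-1 levels, 447.9 CPM in females and 155.3 CPM in males, enter the value. Without called doublets the Venous values were -3.78 for S100a8 and -2.78 for S100a9, larger in size and still called. Without cells holding neutrophil granule RNA the values were -1.64 and -0.68, and neither was called (adjusted p 1.0 for both). In matrix fibroblasts the values were 1.56 for S100a8 (adjusted p 0.00719) and 1.51 for S100a9 (adjusted p 0.00421), and -0.95 and -1.02 without cells holding neutrophil granule RNA, neither of them called (adjusted p 0.979 and 0.799). Without called doublets they were 3.2 and 2.96, and without the Xist-negative cells of the female hyperoxia library 2.1 and 2.04, all still called. For S100a9 the value in alveolar macrophages was -1.84 (adjusted p 0.0158) and in Arterial cells -1.18 (adjusted p 0.00623). Without doublets these were -1.36 (adjusted p 0.314) and 1.31 (adjusted p 0.438). Removal of cells with neutrophil granule RNA gave -1.68 (adjusted p 0.00277) and -0.88 (adjusted p 0.977). The alveolar macrophage value was -3.73 (adjusted p 9.1e-07) without the Xist-negative cells of the female hyperoxia library.

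The other 3 pairs were S100a6 in gCap at -1.07 (adjusted p 0.00249), from 31.62 to 20.11 CPM in females and from 21.64 to 33.18 CPM in males, S100a16 in Neutrophils at -2.06 (adjusted p 0.01), from 7.531 to 3.681 CPM and from 5.044 to 9.694 CPM, and S100a4 in Neutrophils at -1.42 (adjusted p 0.0272). With called doublets left out these were -0.70, -1.67 and -0.64, none of them called. S100a6 in gCap also lost its call without cells holding neutrophil granule RNA (-0.74, adjusted p 0.643). S100a4 in Neutrophils turned to 0.31 (adjusted p 0.845) without the Xist-negative cells, and S100a16 there was -2.53 (adjusted p 0.111). Each sex and treatment had 1 library, so sex, library and the share of neutrophils cannot be told apart here.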

How the results depend on the processing

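For day 21 against day 1, 74 member pairs were called, and 28 of 56 when only genes with short introns were fitted. Hyperoxia gave 19 calls, 9 in DESeq2, 7 without the sex covariate and 32 without a filter on low counts. Sex gave 2 calls, 2 to 10 with a library left out (6 without either day-1 library and 10 without either hyperoxia library), 1 in DESeq2, 0 without cells holding neutrophil RNA, 0 without those holding granule RNA, 0 without the covariate and 13 without a filter. Its 2 calls without doublets were both lower in females and not the same pairs. The interaction gave 13 calls, 2 in DESeq2 and 20 without a filter. Over all genes, 33.3% of pairs were called with age when only genes with short introns were fitted. Without a filter the share over all genes was 2.32% with hyperoxia, 0.467% with sex and 0.386% for the interaction. With a library left out of the sex comparison it was 0.209% to 0.612%, against 0.0948% with all 6 libraries. It was 0.612% without the female and 0.49% without the male hyperoxia library. The cause of these differences was not tested. Leaving out a library for age and hyperoxia left 1 library in a group, so the number of pairs called is not given. It also dropped the sex covariate, since no spread would otherwise remain. No paired analysis was possible because each group held 1 library and the labels give no shared replicate number.

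Directions turned as follows. With age and only short-intron genes fitted, S100a1 in Arterial was at 0.11, S100a16 in Venous at 0.01, S100a8 at 0.05 in Matrix Fibroblasts and 0.26 in Neutrophils, and S100a9 in Neutrophils at 0.28. Scaled on those genes, S100a1 and S100a13 in Arterial were at 0.12 and 0.24, S100a11 in NK Cells at 0.21, S100a13 in gCap at 0.07, S100a16 in Venous at 0.03, S100a8 in Matrix Fibroblasts at 0.08, and S100a6, S100a8 and S100a9 in Neutrophils at 0.28, 0.26 and 0.29. S100a8 in Matrix Fibroblasts was at 0.53 without doublets and from -1.43 to 0.23 with each library left out. With hyperoxia, S100a6 in Alveolar Macrophages was at -0.04 without doublets, and with each library left out S100a8 and S100a9 in Myofibroblasts ran from -3.63 to 0.90 and from -3.44 to 1.12, highest without the male room-air library. Without cells holding neutrophil RNA, and without those holding granule RNA, S100a8 was at -0.86 and -0.57 in Arterial and -1.0 and -0.68 in Venous, and S100a9 at -0.44 and -0.26 in Arterial, -0.98 and -0.82 in Classical Monocytes and -0.39 and -0.24 in Venous. For the interaction the same removals gave -0.89 and -0.95 for S100a8 and -0.82 and -1.02 for S100a9 in Matrix Fibroblasts. S100a9 in Arterial was at 1.31 without doublets, and S100a4 in Neutrophils at 0.31 without Xist-negative cells. Of the CPM values recomputed without doublets or neutrophil RNA, 1189 moved outside their counting interval and 2141 did not.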
